A study of Mus musculus with 4 samples.

Results

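The genes described here are 7 genes of cholesterol synthesis and its control, Hmgcs1, Idi1, Sqle, Cyp51, Hsd17b7, Dhcr7 and Insig1, out of 19938 genes with a probe set of their own. They were taken by symbol from a given list. All 7 were found among the probe sets annotated with exactly 1 symbol, in 8 probe sets, and each gene is represented by its brightest probe set. The group had been named for synthesis and uptake, but 6 of the 7 encode enzymes of synthesis and the other, Insig1, a sterol-dependent regulator, and no uptake receptor is among them.

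RNA levels were read in the whole fetal brain at embryonic day 16, in C57BL/6J, an inbred mouse strain without engineered alleles. In the ethanol group the pregnant females were injected with ethanol in saline at 2.5 g per kg on gestational days 14 and 16. In the control group they received an equal volume of saline on the same days. Fetuses of both groups were taken on day 16, their sex is recorded as unknown, and each array holds pooled RNA of 3 mice, with 2 ethanol pools and 2 control pools from 12 mice in all. How litters were spread over the pools is not stated, so p-values measure only how these pools vary. In whole brain fewer cells of a type and less RNA per cell cannot be told apart.

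Cells build cholesterol from acetyl-CoA through the mevalonate pathway, squalene and lanosterol. In the fetal brain this local synthesis matters because lipoproteins of the blood hardly cross the barrier of the brain vessels, and growing membranes and the hedgehog signal both need sterol. When membrane sterol is low, the protein SCAP carries the transcription factors SREBP1 and SREBP2 to the Golgi, where proteases release them to switch on the synthesis genes. When sterol is plentiful, INSIG proteins hold SCAP in the endoplasmic reticulum.

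Neuronal and radial glia markers were high on every array, while the pools differed in muscle markers and in Xist. The 8 neuronal markers had median log2 levels of 12.60 and 12.49 on the ethanol arrays, against 12.35 and 12.51 on the control arrays, and the 8 radial glia markers medians of 10.25 to 10.43 on the 4 arrays. The upper quartile of all 35556 probe sets was 9.76 to 9.81. All 12 muscle markers were measured. The lowest of their values, 5.56, lay below the lower quartile of every array (6.45 to 6.55). The median level of the 12 was 7.45 and 8.59 in ethanol pools 1 and 2, against 10.12 and 7.48 in control pools 1 and 2. Among them Actc1, the cardiac actin, stood at 8.08 and 11.16 in the ethanol pools, against 12.56 and 8.15 in the control pools. The 7 measured markers of dividing cells had medians of 9.33 and 9.68 in ethanol 1 and 2, against 9.99 and 9.53 in control 1 and 2. Xist, transcribed from the silenced X chromosome of female cells, had log2 levels of 11.96 and 12.80 in the ethanol pools, against 6.10 and 12.84 in the control pools.

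Most of the 7 cholesterol genes stood at similar levels in ethanol and control brains. The largest difference was that of Hsd17b7, which was higher in both ethanol pools than in either control pool. None of the 7 passed the test across all genes. The log2 differences (ethanol minus control) ran from -0.13 for Cyp51 to 0.27 for Hsd17b7, with 4 genes above 0 and 3 below. Their median was 0.023, beside 0.009 over all 19938 genes, of which 54.2% lay above 0.

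**Figure D1:**
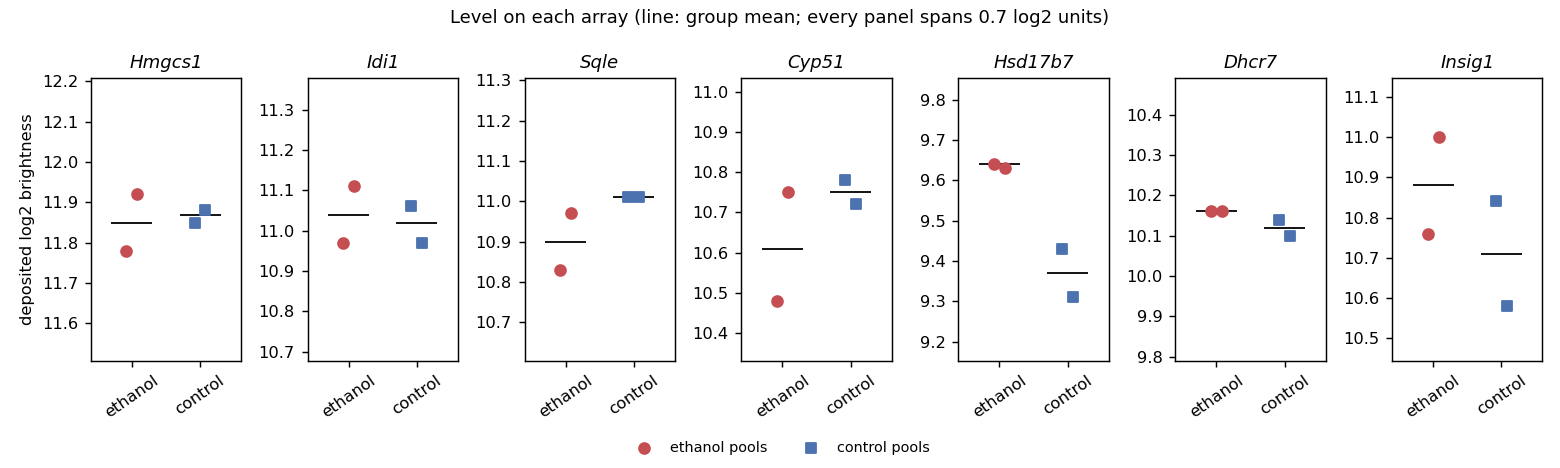
Deposited log2 brightness (vertical axis) of the 7 genes on each array, with the ethanol pools as circles left of the control pools as squares and a line at each group mean. Panels have different centres and the same span; Hsd17b7 stands at 9.63 and 9.64 in the ethanol pools, above 9.43 and 9.31 in the control pools, while most other genes overlap.

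Hsd17b7 encodes a reductase of the endoplasmic reticulum that removes the keto group left when lanosterol is demethylated on the way to cholesterol, and that can also act on sex steroids. Its deposited log2 values (probe set 10359917) were 9.64 and 9.63 in the ethanol pools, against 9.43 and 9.31 in the control pools. The ethanol pools lay within 0.01 of each other, the control pools 0.13 apart, and the groups did not overlap. The log2 difference was 0.27 ± 0.07 (SE, 2 arrays per group), a fold of 1.204 with a 95% interval of 1.06 to 1.37. Limma gave an unadjusted p of 0.0129 and a Benjamini-Hochberg adjusted p of 0.980 over all genes, so the difference did not pass.

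With all 4 arrays, Hsd17b7 was the only 1 of the 7 to meet a looser rule, in which the p before adjustment is under 0.05 and the fold at least 1.2. Across all genes 0.481% met it higher in ethanol and 0.537% lower in ethanol. Hsd17b7 no longer met it without control 2, with a log2 difference of 0.21 and an unadjusted limma p of 0.0837, or in the ordinary test without shared variance, with an unadjusted p of 0.0506. The adjusted threshold was passed by 0% of all genes with limma, with a smallest adjusted p of 0.980. Before adjustment, 587 genes (2.94%) had a p under 0.05 with limma and 768 in the ordinary test, which also called 0 after adjustment.

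Cyp51, the lanosterol demethylase, had log2 values of 10.48 and 10.75 in the ethanol pools, against 10.78 and 10.72 in the control pools. Ethanol 1 was the low array, and ethanol 2 lay between the control pools. The difference was -0.13 ± 0.11 (SE), with a 95% interval of -0.40 to 0.13 and a limma adjusted p of 0.980. Without ethanol 1 it was 0.003, and without ethanol 2 it was -0.27.

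Dhcr7 reduces 7-dehydrocholesterol to cholesterol in the last step of synthesis, and its loss in humans causes Smith-Lemli-Opitz syndrome, with malformations of the brain. It had log2 values of 10.16 and 10.16 in the ethanol pools, against 10.14 and 10.10 in the control pools. The groups did not overlap, but the difference was only 0.04 ± 0.07 (SE), with a 95% interval of -0.12 to 0.20. It had the narrowest range over the 4 arrays of the 7 genes, and its interval ends at a fold of 0.918 below and 1.15 above.

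Sqle encodes squalene epoxidase, which adds the oxygen that later becomes the hydroxyl group of cholesterol and is a rate-limiting enzyme of the late pathway. Its log2 values were 10.83 and 10.97 in the ethanol pools, against 11.01 and 11.01 in the control pools. Both ethanol pools lay below both control pools, by 0.04 to 0.18 in the 4 possible pairs of pools. The difference was -0.11 ± 0.08 (SE), a fold of 0.925 with a 95% interval of 0.810 to 1.06, and did not pass (limma, adjusted p = 0.980). Without ethanol 1 it was -0.04 and without ethanol 2 it was -0.18.

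Over the 7 genes, Hsd17b7 and Dhcr7 had both ethanol pools above both control pools and Sqle had both below. Among all genes 17.4% had the groups apart with ethanol higher and 14.0% with ethanol lower, so counts of 2 and 1 in 7 are near this background. With 2 arrays against 2, the smallest p that an exact two-sided permutation test of a single gene can give is 0.333.

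The 2 genes of the mevalonate part had overlapping groups. Hmgcs1 encodes the cytosolic synthase that makes HMG-CoA, an early intermediate of the pathway. It had log2 values of 11.78 and 11.92 in the ethanol pools, against 11.85 and 11.88 in the control pools, so both control pools lay between the ethanol pools. The difference was -0.01 ± 0.08 (SE), with a 95% interval of -0.20 to 0.18. Idi1 encodes the isomerase that interconverts the building blocks of all isoprenoids. It had log2 values of 10.97 and 11.11 in the ethanol pools, against 11.06 and 10.97 in the control pools, and a difference of 0.02 ± 0.08 (SE). Its other, dimmer probe set read 10.88 and 11.03 in the ethanol pools, against 10.95 and 10.85 in the control pools, with the pools in nearly the same order and a difference of 0.06 ± 0.09. The sign of the Hmgcs1 difference turned without ethanol 1 (0.053) and without control 2 (0.005), and that of Idi1 without ethanol 2 (-0.048) and without control 2 (-0.021).

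Insig1 differs from the other 6 in role, since it holds SCAP back and its own transcription is raised by the SREBP factors that it restrains. Its log2 values were 10.76 and 11.00 in the ethanol pools, against 10.84 and 10.58 in the control pools. Control 2 was lowest, ethanol 2 highest, and ethanol 1 lay between the control pools. The gap within a group was 0.24 for ethanol and 0.26 for control, both larger than the difference between groups of 0.17 ± 0.12 (SE). Its 95% interval, -0.14 to 0.48, was the widest of the 7. Without control 2 the difference was 0.03, without ethanol 2 it was 0.05, and without either of the others it was about 0.3 (0.29 without ethanol 1 and 0.30 without control 1).

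**Figure D2:**
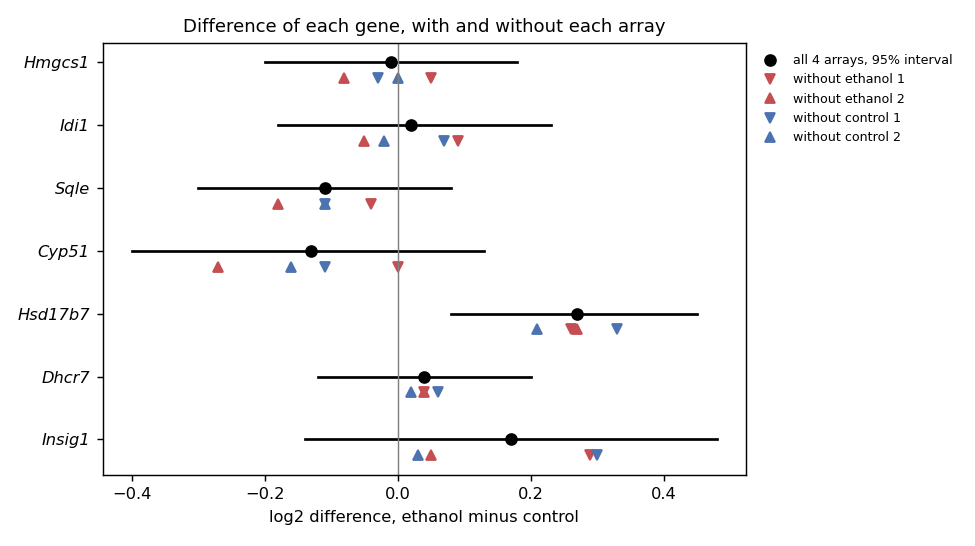
Log2 difference, ethanol minus control (horizontal axis), of each of the 7 genes, as a circle with its 95% interval from limma over all 4 arrays and as triangles with 1 array left out. The interval of Hsd17b7, 0.08 to 0.45, is the only one off 0, and its 4 triangles lie at 0.21 to 0.33. Those of Hmgcs1 and Idi1 lie on both sides of 0, and those of Cyp51 run from -0.271 to 0.003.

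The 7 genes did not share one order of arrays. Ethanol 1 was the lowest array for Hmgcs1, Idi1, Sqle and Cyp51. For Idi1 this was nearly a tie with control 2 (both 10.97), and its other probe set was lowest in control 2. Control 2 was the lowest for Hsd17b7, Dhcr7 and Insig1. The highest array was ethanol 2 for Hmgcs1, Idi1, Dhcr7 and Insig1, control 1 for Sqle and Cyp51, and ethanol 1 for Hsd17b7. Near ties again were the control pools of Sqle and the ethanol pools of Dhcr7, whose printed values are equal. The markers of dividing cells were also lowest in ethanol 1, and the muscle markers were lowest there and in control 2; their part in these orders was not tested. Averaged over the 7 genes after each was centred on its own mean, the arrays stood at -0.049 and 0.083 for ethanol 1 and 2 and at 0.021 and -0.055 for control 1 and 2 (log2). The genes outside the 7 nearest to this averaged profile were Chtop, Abraxas1, Snn, Bcl6 and Tacc1, at Euclidean distances of 0.003 to 0.011 over 4 arrays. This likeness rests on 4 values per gene.

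Promoters of the RefSeq table (GRCm38.p6) were matched by symbol for 6 of the 7 genes, all but Sqle, with 8 windows because Dhcr7 has 3 start sites. The 250 bases before each start were searched on both strands for TCACNCCAC, a form of the sterol regulatory element bound by SREBP, and for CCAAT, bound by NF-Y, and GGGCGG, bound by Sp1, which are known partners of SREBP at sterol-regulated promoters. The element TCACNCCAC was in 1 of the 8 windows, that of Hmgcs1, and in 1.05% of all 32851 windows of this length in the table. CCAAT was in 6 of the 8, at least 1 for each of the 6 genes, against 33.8% of all windows. GGGCGG was in 7 of the 8, against 32.7% of all. A match shows that these letters are there and not that a factor binds, and other forms of the element were not searched.

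The windows of 3 genes are shown: Hmgcs1 for its sterol element, Hsd17b7 for its difference between groups and Insig1 for its spread between pools. Capitals mark TCACNCCAC and CCAAT on either strand (CCAAT reads ATTGG on the other), and each runs 5′ to 3′ on the strand of its gene. The sterol element of Hmgcs1 begins 137 bases before the start, between copies of ATTGG at 176 and 45 bases, and none of the matches overlap. Hsd17b7, the gene with the largest difference, has no TCACNCCAC in its window and 3 copies of ATTGG, while Insig1 has 1. The positions are chr13:119690101-119690350, plus strand, for Hmgcs1, chr1:169969206-169969455, minus strand, for Hsd17b7 and chr5:28071162-28071411, plus strand, for Insig1.
Hmgcs1: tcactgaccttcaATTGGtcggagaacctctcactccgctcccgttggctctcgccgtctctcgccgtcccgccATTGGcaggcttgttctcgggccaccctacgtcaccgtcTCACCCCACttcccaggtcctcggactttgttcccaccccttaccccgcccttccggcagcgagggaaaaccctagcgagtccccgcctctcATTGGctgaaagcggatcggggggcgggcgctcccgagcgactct
Hsd17b7: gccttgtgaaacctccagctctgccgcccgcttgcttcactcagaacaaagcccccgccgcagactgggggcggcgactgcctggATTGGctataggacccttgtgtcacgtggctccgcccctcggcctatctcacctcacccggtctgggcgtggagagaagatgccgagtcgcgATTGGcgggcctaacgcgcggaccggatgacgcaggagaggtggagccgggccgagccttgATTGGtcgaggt
Insig1: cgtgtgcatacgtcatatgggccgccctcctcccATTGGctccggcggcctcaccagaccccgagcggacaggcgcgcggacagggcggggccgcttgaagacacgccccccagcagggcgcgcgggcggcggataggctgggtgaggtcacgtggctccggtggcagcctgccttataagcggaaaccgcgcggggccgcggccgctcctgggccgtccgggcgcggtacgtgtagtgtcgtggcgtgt

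The other enzymes of cholesterol synthesis showed no common shift. Of 15 listed genes 12 had a probe set of their own and the other 3 were not analysed here. There were 7 above 0 and 5 below, with a median log2 difference of 0.02, and none passed the adjusted test. The groups were apart with ethanol higher in 4 of the 12 and lower in 1, beside 17.4% and 14.0% of all genes. Mvk, the mevalonate kinase that acts between Hmgcs1 and Idi1, was the highest, with log2 values of 9.48 and 9.51 in the ethanol pools, against 9.30 and 9.36 in the control pools. Its difference was 0.16 ± 0.07 (SE, limma adjusted p = 0.980). Lbr, the lamin B receptor, an inner nuclear membrane protein that is also a sterol reductase, was the lowest. It had log2 values of 8.82 and 9.45 in the ethanol pools, against 9.98 and 9.54 in the control pools. The groups did not overlap, but the ethanol pools were 0.63 apart and the control pools 0.44.

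The difference of Lbr was -0.62 ± 0.24 (SE, limma unadjusted p = 0.0420, adjusted p = 0.980), which met the looser rule. The markers of dividing cells, given above, were likewise lowest in ethanol 1 and highest in control 1, and their part in the Lbr values was not tested. Without ethanol 1 the difference was -0.31 and without control 1 it was -0.40, and the looser rule was not met without either array. The difference was -0.94 without ethanol 2 and -0.84 without control 2. With all 4 arrays Lbr also missed the rule in the ordinary test (unadjusted p = 0.247), with a robust prior (unadjusted p = 0.0702) and among brighter genes (unadjusted p = 0.0522).

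The list of SREBP control holds the SREBP genes themselves and leaves out Insig1, which is among the 7 and stood at 0.17. The measured genes of this list had small differences below 0 that did not pass the test. Of 7 listed genes 5 were measured and all 5 stood below 0, with a median of -0.064, although Insig2, at -0.004, turned above 0 with median centring or repeated quantile normalization. Srebf2, which encodes the SREBP that mainly drives cholesterol synthesis, had log2 values of 10.70 and 10.72 in the ethanol pools, against 10.77 and 10.74 in the control pools. Its difference was -0.04 ± 0.07 (SE). Mbtps1, the Golgi protease that makes the first cut in SREBP, was the lowest of the list, with 10.44 and 10.66 in the ethanol pools, against 10.80 and 10.67 in the control pools. Its difference was -0.19 ± 0.10 (SE, limma adjusted p = 0.980). In 4 of the 5, namely Srebf1, Srebf2, Scap and Mbtps1, both ethanol pools lay below both control pools; Srebf1 (-0.10 ± 0.07) and Scap (-0.06 ± 0.07) are named after their values were seen. Over all genes 14.0% had the groups apart with ethanol lower, and 9134 of 19938 had a difference below 0. None of the 5 passed the test, and the nearest ethanol and control pools of Mbtps1 were 0.01 apart.

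Genes of uptake and transport within the cell had small differences on both sides of 0. Of 11 listed, 10 were measured. They had 4 differences above 0 and 6 below, a median of -0.019 and a range of -0.09 for Lrp1, a large endocytic lipoprotein receptor, to 0.10 for Stard3, a sterol transfer protein of late endosomes. Stard3 read 9.56 and 9.41 in the ethanol pools, against 9.42 and 9.36 in the control pools, so its groups overlapped. Lrp1 read 11.31 and 11.38 in the ethanol pools, against 11.46 and 11.41 in the control pools, so its groups were apart. Both ethanol pools lay below both control pools in 2 of the 10 and above in 0, beside 14.0% and 17.4% of all genes.

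Of the genes of cholesterol efflux and storage, 8 of 10 listed were measured, with 5 above 0 and 3 below and a median of 0.035. Among brighter genes 2 of 5 lay above 0. Left out there were Ch25h, Nr1h3 and Lcat, all above 0 and below the median of every array. The groups were apart with ethanol higher in 1 of the 8 and lower in 3, beside 17.4% and 14.0% of all genes. The 3 were Abca1, Apoe and Abcg1 (-0.08 ± 0.07). Nr1h3, Lcat and Abcg1 are named after their values were seen. Abca1, the pump that loads cholesterol onto apolipoproteins, was the lowest. It had log2 values of 9.56 and 9.59 in the ethanol pools, against 9.89 and 9.76 in the control pools. Its difference was -0.25 ± 0.07 (SE, limma unadjusted p = 0.0174, adjusted p = 0.980), a fold of 0.842 with a 95% interval of 0.740 to 0.957. Apoe, the main apolipoprotein of the brain, named after its values were seen, was also apart, at 10.63 and 10.57 in the ethanol pools, against 10.78 and 10.84 in the control pools. Its difference was -0.21 ± 0.07 (SE, limma unadjusted p = 0.0254, adjusted p = 0.980). Both Abca1 and Apoe are also expressed by cells around vessels. The 12 pericyte, fibroblast and meningeal markers, with a lowest value of 7.12, had medians of 8.78 and 8.99 in the ethanol pools. Their medians in the control pools were 9.35 and 8.74. All 12 had a difference below 0, and 3 had the groups apart. The 8 endothelial markers, with a lowest value of 8.43, had medians of 8.87 and 8.88 in the ethanol pools, against 9.05 and 8.94 in the control pools. All 8 had a difference below 0, with the groups apart in 5. Over all genes, 14.0% had the groups apart with ethanol lower. A difference below 0 was found in 9134 of all 19938. Control 1 was the highest array for Abca1 and for the medians of both marker lists and control 2 for Apoe, and the part of these cells in either gene was not tested. Ch25h, which makes an oxysterol, was the highest of the list at 0.11 ± 0.08, but its log2 levels of 5.76 to 5.96 lay below the lower quartile of every array.

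**Figure D3:**
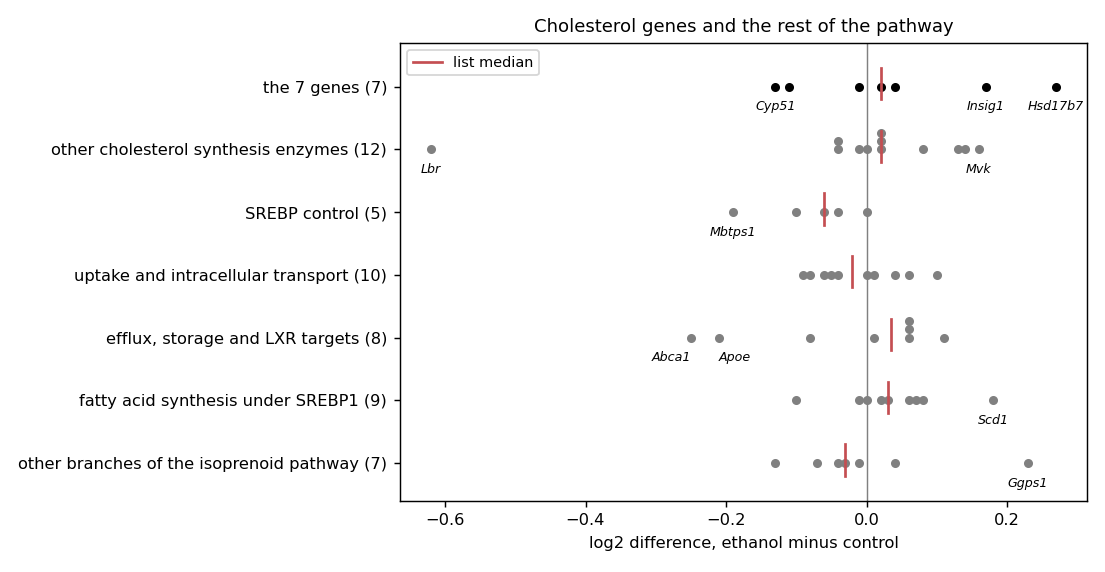
Log2 difference, ethanol minus control (horizontal axis), of the 7 genes (black) and of 51 further genes of the pathway in 6 lists (grey), 1 point per gene, with the number measured in brackets and a line at each list's median. Medians lie between -0.064 and 0.035, and the points farthest from 0 are Lbr at -0.62, Hsd17b7 at 0.27 and Abca1 at -0.25.

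The fatty acid genes driven by SREBP1 had 7 of 9 measured members above 0, beside 54.2% of all genes, with a median of 0.033. Both ethanol pools lay above both control pools in 5 of the 9 and below in 1, beside 17.4% and 14.0% of all genes. Scd1, the desaturase that makes oleate, was the highest, with log2 values of 10.93 and 10.89 in the ethanol pools, against 10.68 and 10.78 in the control pools. Its difference was 0.18 ± 0.07 (SE, limma unadjusted p = 0.0519, adjusted p = 0.980), and the groups did not overlap. Fads1, a desaturase of polyunsaturated fatty acids, was the lowest at -0.10 ± 0.07. The other branches of the isoprenoid pathway had 2 of 7 above 0 and a median of -0.031. The groups were apart with ethanol higher in 2 of the 7 and lower in 0. There Ggps1, the synthase of the lipid that anchors many small GTPases, was the highest, with 11.46 and 11.26 in the ethanol pools, against 11.14 and 11.12 in the control pools. Its difference was 0.23 ± 0.09 (SE, limma unadjusted p = 0.0409, adjusted p = 0.980), and without ethanol 1 it was 0.13. Pggt1b, a subunit of the enzyme that attaches that lipid, was the lowest at -0.13 ± 0.12, with overlapping groups.

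Across the 6 lists, 51 of 61 genes were measured, of which 25 lay above 0 and 26 below, with a median of -0.002. Of the 51, Lbr alone met the looser rule, beside 0.481% of all genes higher and 0.537% lower in ethanol. None of the 51 passed the adjusted test. Both ethanol pools lay above both control pools in 12 of them and below in 11, beside the 17.4% and 14.0% of all genes given above.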

How the data were processed

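The deposited values are log2 brightness, with a value for each probe set on each array; the base of the log is not stated and was inferred from their range. The authors used Partek 6.6, per the submitters' processing notes. Their background correction and normalization are not stated in any source used here. Per the labels' protocols, total RNA was copied to single-stranded cDNA and labelled with biotin for Affymetrix whole-transcript arrays.

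Of 35556 probe sets, 21789 have 1 gene symbol, 1621 several and 12146 none in the platform annotation. Symbols were updated by Entrez identifier through the GRCm38.p6 gene table (21698 matched). The brightest probe set stood for each of 19938 genes. The groups were compared by limma 3.58.1 in R 4.3.3 (lmFit and eBayes, two-sided, 2 residual and 5.65 total degrees of freedom), with Benjamini-Hochberg adjustment over all genes. The fit was tested on simulated data, where only the largest added difference had to be recovered. That check set no requirement for small differences such as those described here. The number of arrays limits the precision.

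The 7 genes and all lists were chosen with earlier results of these data known. Named were all 7 genes, Srebf2, each pathway list's highest and lowest gene, any gene of those lists past the looser rule, Xist and Actc1 of the marker lists, and the 5 nearest profiles, these without predicted, receptor-cluster and small RNA genes. Alternatives were other probe set choices, scalings, filters, variance models, a replicate block and leaving out each array.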

Additional observations from a re-analysis of the deposited data

How the results depend on the processing

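No member of the 7 passed the adjusted threshold under any of 13 alternatives, and the smallest adjusted p was 0.573. Of 91 member values under alternatives, 86 kept their sign. Filters, variance models, the replicate block and the fit over all probe sets do not alter a gene's difference, so no sign could turn there. Averaging probe sets could alter it only for Idi1, which has another probe set. The 5 that turned all came from leaving out an array, where Cyp51 ranged from -0.271 to 0.003, Hmgcs1 from -0.081 to 0.053 and Idi1 from -0.048 to 0.094. Hsd17b7 ranged from 0.205 to 0.330, Sqle from -0.182 to -0.041, Dhcr7 from 0.019 to 0.062 and Insig1 from 0.035 to 0.298. The median of the 7 ranged from -0.048 to 0.062 and the number above 0 from 3 to 6. Lone arrays there are assumed to vary like the other group.

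Over all genes, the 203 past the looser rule became 134 among brighter genes, 993 over all probe sets, 37 in the ordinary test and 142 to 1265 with an array left out. Genes past the adjusted threshold numbered 0 to 4 with an array left out, the 4 of them without control 2. The 6252 genes with groups apart became 3466 among brighter genes, 11200 over all probe sets and 11642 to 14832 with an array left out, where fewer genes, more features or fewer arrays enter. Of the pathway lists, the 1 gene past the looser rule became 0 among brighter genes and over all probe sets and 0 to 4 with an array left out. With an array left out, the number above 0 was 4 to 10 of the 12 other synthesis enzymes, 0 to 1 of the 5 genes of SREBP control and 3 to 6 of the 10 of uptake. It was 2 to 5 of the 8 of efflux, 6 to 8 of the 9 of fatty acid synthesis and 3 to 5 of the 7 of other isoprenoid branches.

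The labels do not say that a shared number pairs an ethanol with a control array, and such arrays deviated from their group means with a correlation of -0.484. In a fit with the replicate block the differences were unchanged, which the balanced design fixes in advance. There Hsd17b7 had an unadjusted limma p of 0.0315, and 0 genes passed the adjusted threshold and 196 the looser rule. With crossed pairing, chosen after seeing the data, the counts were 0 and 373.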
